A study of Danio rerio with 4 samples.

Results

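The transcripts of 9 transcription factor genes of the liver, hnf4a, nr5a2, hnf1ba, prox1a, onecut1, foxa1, foxa2, foxa3 and cebpa, were followed in livers of fasting zebrafish larvae. They were chosen by name, 1 gene identifier each, and make up 9 of the 32058 rows of the count table. Larvae were kept from 4 dpf without exogenous food in 5 μM lipofermata, an inhibitor of the fatty acid transporter encoded by slc27a2a, or in the DMSO vehicle. Livers were dissected at 6 dpf after 48 h, and 2 pools of 30 larval livers made up each group. All samples carry the genotype label AB. Whether the pools of a group came from different clutches is stated neither in the labels nor in the methods, so the p-values measure only the spread between these pools, which may be technical. Reads of an EGFP reporter were counted in all 4 libraries, although the labels of these samples name no transgene.

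Hepatocytes keep their identity through a small set of transcription factors that bind each other's genes and those of plasma proteins and metabolic enzymes. Hnf4a, a nuclear receptor, is central to this network in mammals, and the Foxa proteins are pioneer factors that open chromatin for others. Onecut1 also acts in bile duct cells, Prox1 in lymphatic endothelium and pancreas, Foxa2 and Nr5a2 in pancreas and gut, and C/EBPα in myeloid cells.

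The libraries held 14997821 to 19368695 counts, and 14925 genes had enough counts to be tested. All 9 factors were among them. Levels are given as CPM (counts relative to library size, with TMM scaling factors) for each library in the order vehicle replicate 1, vehicle replicate 2, lipofermata replicate 1 and lipofermata replicate 2. As no transcript lengths were at hand, levels of different genes were not ranked. A gene was called at an adjusted p under 0.1 from edgeR's quasi-likelihood test over all genes. For 2 pools against 2, the smallest p of an exact permutation test (two-sided) is 0.333, so calls depend on the variance that the fit borrows from all genes.

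Of the 9 factors, hnf4a, foxa2 and hnf1ba fell with lipofermata, nr5a2 and cebpa rose, and onecut1, foxa1, foxa3 and prox1a did not pass the test. Thus 5 of 9 were called, where 33.5% of all genes tested were called (16.6% higher and 16.9% lower). The groups did not overlap for 6 of the 9 factors, against 65.2% of all genes tested, which is close to the background. The median log2 fold change was -0.22 over the factors and -0.03 over all genes tested. Scaled by total counts alone, the median gene shifts up by 0.39 on the log2 scale, 4 factors rose (nr5a2, cebpa, onecut1 and foxa3) and 1 fell (hnf4a). Directions are therefore relative to the bulk of genes with TMM, and to the summed counts of a library when scaled by total counts. Without lipofermata replicate 1, 0 factors rose and 3 fell, without lipofermata replicate 2, 0 rose and 1 fell (hnf4a), and without vehicle replicate 1, 3 rose and 5 fell. In bulk liver, fewer cells of a type and less RNA per cell cannot be told apart.

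**Figure D1:**
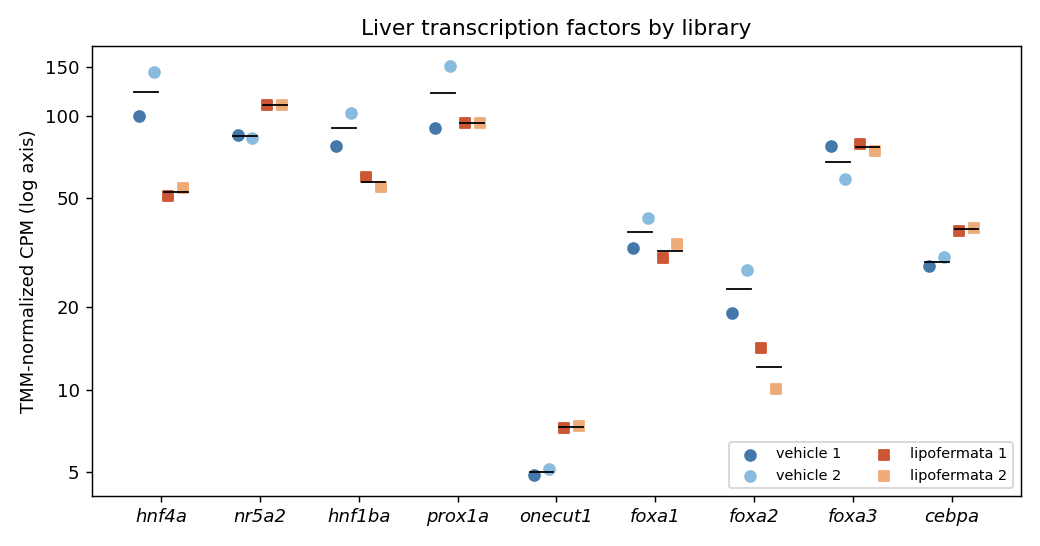
TMM-normalized CPM (log axis) of the 9 factors in each of the 4 libraries. Circles are vehicle, squares are lipofermata, and bars are the means of 2 libraries. Both lipofermata libraries lie below both vehicle libraries for hnf4a, hnf1ba and foxa2, and above them for nr5a2, onecut1 and cebpa.

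Of the nuclear receptors in the set, hnf4a fell and nr5a2 rose. The hnf4a gene (ENSDARG00000021494), whose product drives many hepatocyte genes in mammals, stood at 99.4, 145, 50.7 and 54.3 CPM. Both vehicle libraries lay well above both lipofermata libraries, with vehicle replicate 2 the highest. The group means were 122 ± 32.0 CPM with vehicle and 52.5 ± 2.56 CPM with lipofermata (SD, n = 2), a log2 fold change of -1.21 ± 0.18 (SE, 95% interval -1.62 to -0.81, edgeR adjusted p = 0.00135). This was the largest change of the 9, and hnf4a alone of them was called under all 11 alternatives, with -0.81 when scaled by total counts.

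The nr5a2 gene (ENSDARG00000100940) encodes the liver receptor homolog LRH-1, a regulator of bile acid and cholesterol genes. It stood at 84.6, 83.1, 109 and 110 CPM. The replicates of each group lay close together, and the lipofermata libraries were higher. The means were 83.9 ± 1.04 and 109 ± 0.518 CPM (SD, n = 2), a log2 fold change of 0.38 ± 0.14 (SE, edgeR adjusted p = 0.0637). It did not pass without lipofermata replicate 1 (adjusted p = 0.35) or without lipofermata replicate 2 (adjusted p = 0.34) (over the alternatives, adjusted p lay between 0.0056 and 0.35).

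Among the homeodomain factors, hnf1ba fell, and prox1a and onecut1 did not pass. The hnf1ba gene (ENSDARG00000006615), which acts in liver specification and bile duct formation in zebrafish, stood at 77.6, 102, 59.9 and 54.8 CPM. The lipofermata libraries were the lower pair. From 89.9 ± 17.4 to 57.4 ± 3.59 CPM (SD, n = 2), the log2 fold change was -0.65 ± 0.16 (SE, edgeR adjusted p = 0.0165). With total counts it was -0.24 and did not pass (adjusted p = 0.27), and without lipofermata replicate 2 it did not pass either (adjusted p = 0.16) (alternatives spanned 5.0e-07 to 0.27).

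The prox1a gene (ENSDARG00000055158), needed for hepatoblast migration and expansion in the mouse, stood at 89.8, 151, 94.2 and 94.2 CPM. Vehicle replicate 2 stood apart and the other 3 libraries nearly coincided, so that the groups overlapped. The log2 fold change of -0.35 (95% interval -0.82 to 0.12, edgeR adjusted p = 0.26) was 0.07 without vehicle replicate 2 and -0.67 without vehicle replicate 1, when it passed (adjusted p = 5.0e-05, within 5.0e-05 to 0.84 over the alternatives). With total counts it was 0.06.

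The onecut1 gene (ENSDARG00000007982), known as HNF6, stood at 4.88, 5.14, 7.25 and 7.39 CPM. It rested on 63 to 145 counts per library. Both lipofermata libraries were higher than both vehicle libraries, but the log2 fold change of 0.55 did not pass (95% interval -0.01 to 1.101, edgeR adjusted p = 0.14). It passed when scaled by total counts (0.93, adjusted p = 0.022) (alternatives spanned 0.022 to 0.39).

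Of the forkhead genes, foxa2 fell, and foxa1 and foxa3 did not pass. The foxa2 gene (ENSDARG00000003411) stood at 19.1, 27.4, 14.2 and 10.1 CPM. The lipofermata libraries were the lower pair. The means were 23.3 ± 5.92 and 12.1 ± 2.91 CPM (SD, n = 2), a log2 fold change of -0.93 ± 0.23 (SE, edgeR adjusted p = 0.0139). It did not pass with total counts (-0.53, adjusted p = 0.11) or without lipofermata replicate 2 (-0.71, adjusted p = 0.12) (alternatives spanned 2.3e-08 to 0.12).

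The foxa1 gene (ENSDARG00000102138) stood at 32.8, 42.2, 30.2 and 33.9 CPM, and foxa3 (ENSDARG00000012788) at 77.1, 58.8, 79.0 and 74.4 CPM. In both genes the groups overlapped, and vehicle replicate 2 was the library that stood off, as the highest for foxa1 and the lowest for foxa3. The log2 fold change of foxa1 was -0.22 (95% interval -0.58 to 0.14), with 0.17 by total counts and -0.03 without vehicle replicate 2. That of foxa3 was 0.17 (95% interval -0.18 to 0.53), with -0.01 without vehicle replicate 2. Without vehicle replicate 1, foxa1 (-0.39) and foxa3 (0.39) both passed, as did foxa3 with total counts (0.55).

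The cebpa gene (ENSDARG00000036074) encodes C/EBPα, a leucine zipper factor of hepatocytes and of myeloid precursors. It stood at 28.3, 30.4, 37.9 and 39.0 CPM, with the lipofermata libraries higher. The means were 29.3 ± 1.49 and 38.4 ± 0.795 CPM (SD, n = 2), a log2 fold change of 0.39 ± 0.14 (SE, edgeR adjusted p = 0.0645). It did not pass with DESeq2 (adjusted p = 0.15), without lipofermata replicate 1 (adjusted p = 0.28) or without lipofermata replicate 2 (adjusted p = 0.32) (alternatives spanned 0.0060 to 0.32). Of 10 tested markers of myeloid cells, edgeR called 0 higher (0 also at an unadjusted p under 0.05, with DESeq2 and with limma voom). Of these 10, 5 were called lower (3 with DESeq2 and 1 with total counts). Summed over the myeloid markers, vehicle replicate 1 stood at 124 CPM. Vehicle replicate 2, at 53.5 CPM, lay between the lipofermata libraries (45.2 and 72.4 CPM). The fall of the sum thus rested on vehicle replicate 1. By imaging, the study found no change in the number of liver macrophages with lipofermata. The size of the fall in single markers also depended on the libraries used. With 1 library left out, the log2 fold change lay between -1.92 and -0.36 for lcp1 and between -2.32 and -0.38 for mfap4. A part of myeloid cells or their precursors in the change of cebpa was not tested.

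**Figure D2:**
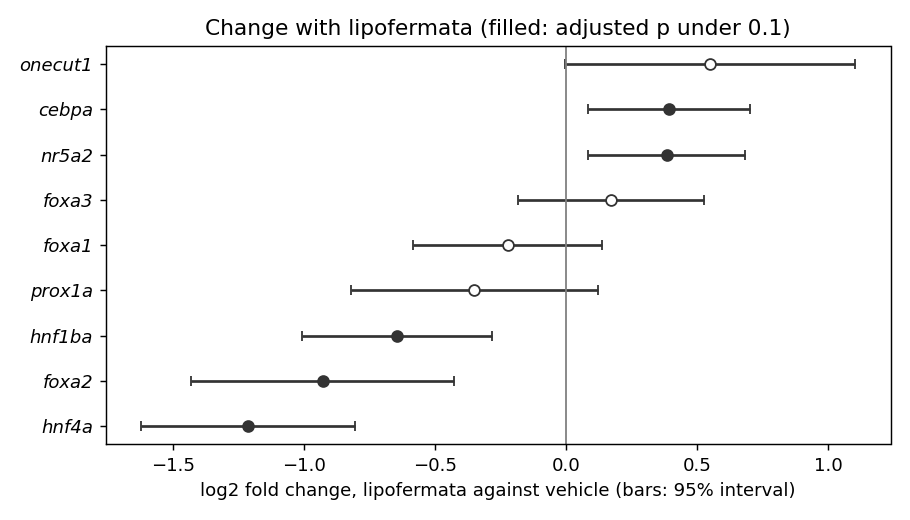
Log2 fold change of each factor, lipofermata against vehicle, with its 95% interval from edgeR's fit. Filled points passed an adjusted p of 0.1. The intervals of hnf4a, foxa2 and hnf1ba lie below 0, those of nr5a2 and cebpa above 0, and those of prox1a, foxa1, foxa3 and onecut1 span it.

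**Figure D3:**
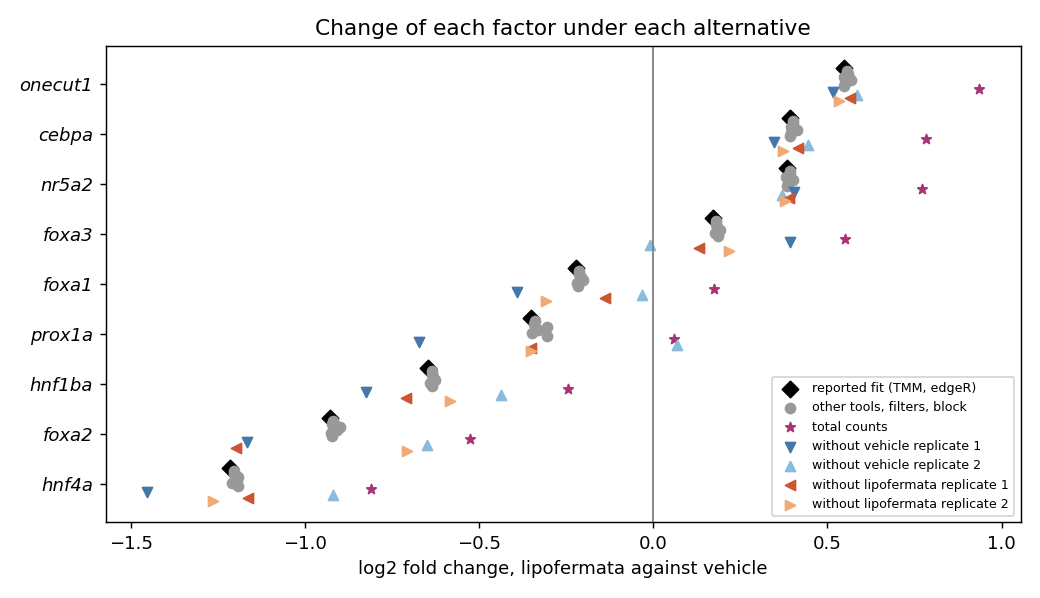
Log2 fold change of each factor in the fit reported and in the 11 alternatives. Black diamonds are the fit reported, stars are scaling by total counts, and triangles leave out 1 library. Triangles and stars lie below 0 throughout for hnf4a, foxa2 and hnf1ba, and on both sides of 0 for prox1a, foxa1 and foxa3.

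The scaling drops out when factors are set against each other within a library. The log2 ratio of nr5a2 to hnf4a counts was -0.23 and -0.80 with vehicle, and 1.104 and 1.014 with lipofermata. The ratio thus rose by 1.57 on the log2 scale. Only this change was read, as the counts of different genes depend on transcript length. Since hnf4a fell, the median of all genes tested was higher by 1.18 on this measure, and the groups were apart for 85% of them. Above this median lay onecut1 (1.74), cebpa (1.58), nr5a2 (1.57) and foxa3 (1.38), and below it foxa1 (0.97), prox1a (0.89), hnf1ba (0.56) and foxa2 (0.26), the last with overlapping groups. These ratios are a description, with no test.

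The same ratios were taken against the mean log2 count of 23 hepatocyte markers, a list that includes the EGFP reporter and of which 10 fell and 13 did not pass. By edgeR 0 rose (0 at an unadjusted p under 0.05, with DESeq2 and with limma voom, and 3 with total counts), and 17 fell without vehicle replicate 1 and 5 without either lipofermata replicate. Their median log2 fold change was -0.32 and their mean -0.59, and hpxa, the hemopexin gene, with -2.90 on 6 to 190 counts, and ahsg2, with -1.96, lay far below the median. Against this mean, hnf4a stood at -4.19 and -3.87 with vehicle and at -4.70 and -4.51 with lipofermata. It was lower by 0.58 with lipofermata, and the groups did not overlap. Some of the markers, rbp4 and tfa among them, are listed below as HNF4A targets, so this reference may not be independent of hnf4a. For hnf1ba the difference was -0.02 and for foxa2 -0.32, and for both the groups overlapped. Relative to the mean of the markers nr5a2 was higher by 0.998, cebpa by 1.01, onecut1 by 1.16, foxa3 by 0.80, foxa1 by 0.40 and prox1a by 0.31, with the groups apart. For prox1a they were barely so, with vehicle replicate 2 at -3.81 and lipofermata replicate 1 at -3.8098. On the same measure the median of all genes tested was higher by 0.60, and the groups were apart for 76.3% of them. Against the median of the 22 markers other than EGFP, hnf4a was lower by 0.85, foxa2 by 0.59 and hnf1ba by 0.29, each with the groups apart. There prox1a was higher by 0.04 with overlapping groups. The groups were apart for nr5a2, cebpa, onecut1, foxa3 and foxa1, higher by 0.13 (foxa1) to 0.89 (onecut1). The median of all genes tested was higher by 0.33 (groups apart for 66.5%). Against the EGFP reporter alone, hnf4a stood at -3.04, -2.30, -3.29 and -2.57, and the groups overlapped, as they did for foxa2, hnf1ba and prox1a. The groups were apart for onecut1 (higher by 1.48), cebpa (1.32), nr5a2 (1.32), foxa3 (1.12) and foxa1 (0.72). With this reference the median of all genes tested was higher by 0.92, and the groups were apart for 75.2% of them. The study describes lines with EGFP under the hepatocyte promoter of fabp10a and under the macrophage promoter of mpeg1.1, and which line these livers came from is not named. The reporter fell (log2 fold change -0.90, edgeR adjusted p = 0.0098), while fabp10a had -0.25 and did not pass.

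Paralogs of the factors did not all move with them. Of 19 paralogs listed, 18 were in the table and 11 had enough counts to be tested. Of these, cebpd, nr5a5 and onecutl fell, edgeR called 0 higher (0 at an unadjusted p under 0.05, with DESeq2 and with limma voom, and 3 with total counts) and 8 did not pass, and their median was -0.24. Beside these counts, 16.6% of all genes tested rose and 16.9% fell. The cebpd gene, an acute phase partner of cebpa, had a log2 fold change of -0.98 and nr5a5, a fish relative of nr5a2, of -0.95. For onecutl the value was -1.33, with 2253 counts in vehicle replicate 2 against 872 to 1103 in the other libraries. It was -0.34 without vehicle replicate 2, and it did not pass with DESeq2. Beside hnf4a, hnf4b had 0.46 and hnf4g -0.36. Further paralogs that did not pass were cebpb (-0.15), cebpg (-0.24), onecut2 (-0.12) and prox3 (-0.62), and with total counts cebpb (0.23), cebpg (0.14), onecut2 (0.26) and hnf4g (0.05) lay above 0.

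The share of a factor in the counts of its family also needs no scaling between libraries. Because it depends on transcript length, only its change was read. The intervals hold for counting error alone, as PCR copies are not separate molecules. The hnf4a gene took 70.8% of the counts of hnf4a, hnf4b and hnf4g in vehicle replicate 1 (95% Wilson interval 69.0 to 72.5) and 73.8% in vehicle replicate 2 (72.0 to 75.5). With lipofermata it took 54.5% (52.2 to 56.8) and 57.9% (55.5 to 60.2), below both vehicle libraries.

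In the NR5A family, nearly all counts came from nr5a5 and nr5a2. The nr5a2 share was 11.9% (95% Wilson interval 11.3 to 12.4) and 9.59% (9.05 to 10.2) with vehicle, and 23.1% (22.3 to 24.0) and 23.1% (22.2 to 24.0) with lipofermata. The cebpa share of the C/EBP genes was 3.73% and 3.28% with vehicle, and 7.48% and 7.21% with lipofermata. In both families the member of the set gained share while a relative with more counts, nr5a5 or cebpd, fell.

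Within the FOXA family the summed level stayed near 129 CPM in each vehicle library (130 and 129) and was 124 and 119 CPM with lipofermata. The foxa2 share was 14.7% (95% Wilson interval 13.4 to 16.2) and 21.2% (19.3 to 23.3) with vehicle, and 11.5% (10.3 to 12.8) and 8.49% (7.39 to 9.74) with lipofermata. The foxa3 share was 59.5% (57.5 to 61.5) and 45.5% (43.0 to 47.9) with vehicle, and 63.9% (62.0 to 65.8) and 62.7% (60.6 to 64.7) with lipofermata. Vehicle replicate 2 thus stood apart from the other 3 libraries in foxa3, and the intervals of vehicle replicate 1 and lipofermata replicate 2 overlapped. For foxa2 both lipofermata shares lay below both vehicle shares, with vehicle replicate 1 and lipofermata replicate 1 the closest. Its intervals did not overlap within either group, so they do not measure the spread between pools.

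**Figure D4:**
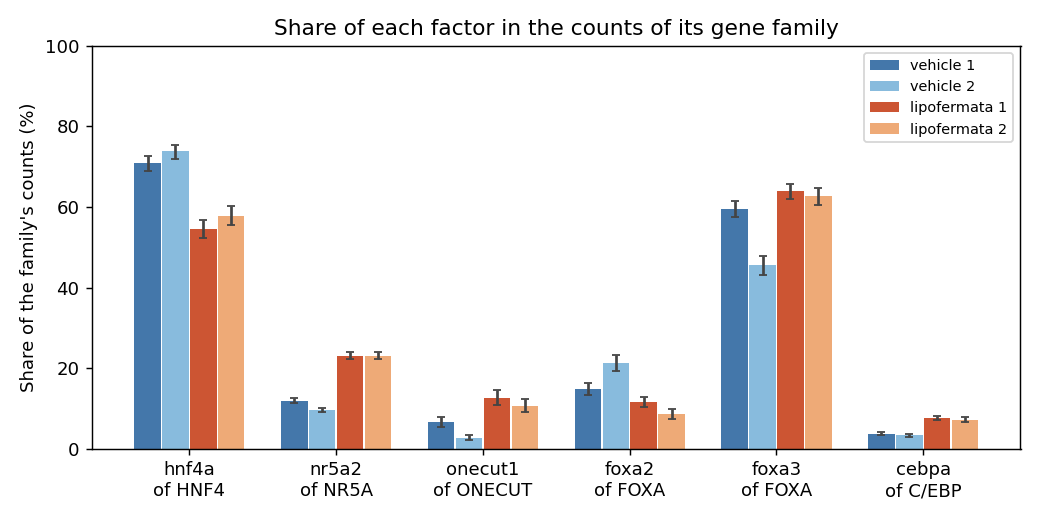
Share (%) of selected factors in the summed counts of their gene family, for each of the 4 libraries, with 95% Wilson intervals. The bars of hnf4a and foxa2 are lower in both lipofermata libraries than in both vehicle libraries, and those of nr5a2, onecut1 and cebpa are higher.

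Genes that these factors are known to regulate in mammals were then examined, in lists that overlap and share hepatocyte genes. Of all genes tested, 16.6% rose and 16.9% fell, and every list count is to be read beside these shares. Falls were also common among the hepatocyte markers, as 10 of the 23 tested fell, with a median of -0.32. Some of these markers, rbp4, serpina1 and tfa among them, are HNF4A targets too, so they are no independent background. Of 28 tested HNF4A targets, 13 fell, 1 rose and 14 did not pass, and their median was -0.35. Those that fell include g6pca.2 (-1.67), a glucose-6-phosphatase, slc2a2 (-1.30), the glucose transporter of hepatocytes, and rbp4 (-1.04), the plasma retinol carrier. The coagulation factor gene f9b rose by 0.66, and did not pass without lipofermata replicate 1. With total counts 10 of the 28 rose and 10 fell. Without lipofermata replicate 1, 7 fell, and without lipofermata replicate 2, 8.

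Of 13 tested FOXA targets, 7 fell, edgeR called 0 higher (0 at an unadjusted p under 0.05, with DESeq2 and with limma voom, 1 with total counts) and 6 did not pass, with a median of -0.40. With either lipofermata replicate left out 4 fell, and without vehicle replicate 1, 12. Of those that fell, hnf4a and hnf1ba are themselves among the 9 factors. The plasma protein genes ahsg2 (-1.96) and ahsg1 (-1.08) fell, as did tat (-0.95), a tyrosine aminotransferase. Of 8 tested ONECUT1 targets, 6 fell, edgeR called 0 higher (0 at an unadjusted p under 0.05, with DESeq2, limma voom and total counts) and 2 did not pass, with a median of -0.79, and hnf4a, hnf1ba and foxa2 make up 3 of the 6. With total counts 3 fell, and without either lipofermata replicate 4.

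Of 11 tested NR5A2 targets, 2 rose, 3 fell and 6 did not pass, with a median of -0.13, where 16.6% of all genes tested rose and 16.9% fell. The sterol transporter gene abcg5 rose by 0.71, and the bile salt pump gene abcb11b by 0.40, while abcg8 of the same list had -0.13 and did not pass. Those that fell were scarb1 (-0.74), which takes up lipoprotein cholesterol, apoa1b (-0.72) and cyp7a1 (-0.59), the first enzyme of bile acid synthesis. Each of these 5 lost its call when 1 of the lipofermata libraries was left out (abcg5 and scarb1 without replicate 2, cyp7a1 without replicate 1, abcb11b and apoa1b without either), and cyp7a1 was -0.19 with total counts. With total counts 5 of the list rose and 1 fell. Of 9 tested C/EBPα targets, 6 fell, edgeR called 0 higher (1 at an unadjusted p under 0.05, 0 with DESeq2, 1 with limma voom and 1 with total counts) and 3 did not pass, with a median of -0.55. Among them tat (-0.95), gys2 (-0.78), the liver glycogen synthase, serpina1 (-0.72), the antitrypsin gene, and tfa (-0.55), the transferrin gene, fell. Without lipofermata replicate 1, 0 of the list fell, and without lipofermata replicate 2, 2 fell.

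**Figure D5:**
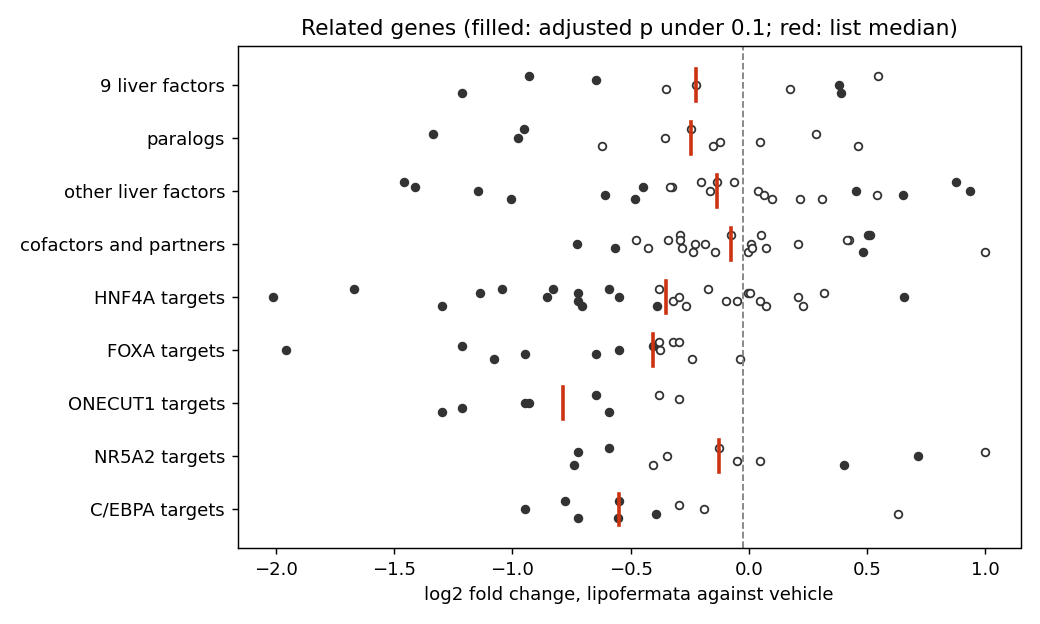
Log2 fold change of every tested gene of the 9 factors and of 8 related lists, with list medians in red and the median of all 14925 genes tested as a dashed line at -0.03. Filled points passed an adjusted p of 0.1. List medians run from -0.79 (ONECUT1 targets) to -0.08 (cofactors), and lists share genes.

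Other transcription factors of liver development were mixed. Of 23 tested, 7 fell, 4 rose and 12 did not pass, with a median of -0.13, where 16.9% of all genes tested fell and 16.6% rose. The endoderm factors gata4 (-1.01) and gata5 (-1.15), hlx1 (-1.41), a homeobox gene of liver mesenchyme in the mouse, and klf6b (-1.46) fell. The zinc finger gene klf6a rose by 0.94, creb3l3a, a fasting-responsive factor, by 0.88, and bhlhe40, a clock repressor, by 0.45. Of the genes related to creb3l3a, creb3l3b fell (-0.61, edgeR adjusted p = 0.040), and creb3l3l had -0.32 and did not pass. The homeobox gene hhex, one of the earliest liver bud genes, rose by 0.65, and with 0.40 did not pass without vehicle replicate 1. Of these, klf6b did not pass with total counts (-1.08) or without lipofermata replicate 1 (-0.96), and creb3l3a, bhlhe40 and hhex lost their calls with 1 lipofermata library fewer, whichever it was, so that 1 of the 23 rose in either case.

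Of 25 tested cofactors and partners, 3 rose, 2 fell and 20 did not pass, with a median of -0.08. Of all genes tested, 16.6% rose and 16.9% fell. The coactivator genes ncoa3 (0.51) and ppargc1b (0.48) and the corepressor gene nrip1a (0.50) rose, while rxraa (-0.73), a partner of many nuclear receptors, and the acetyltransferase gene ep300b (-0.57) fell. Without lipofermata replicate 1 none of these 5 passed, and without lipofermata replicate 2, 0 of the list rose and 1 fell. Without vehicle replicate 2, nrip1a (0.28) and ep300b (-0.33) did not pass, and without vehicle replicate 1, 5 of the list fell. The gene nr0b2a, whose product SHP restrains NR5A2 and HNF4A, had 16, 12, 46 and 26 counts and a log2 fold change of 0.999, which did not pass (edgeR adjusted p = 0.20).

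Several cell types in the pools could carry these factors, and markers of some of them moved with the groups. Beside the counts below, 16.6% of all genes tested rose and 16.9% fell. Summed over 14 endothelial markers, the level was 873 and 780 CPM with vehicle and 246 and 229 CPM with lipofermata, and 12 of 14 fell, stab1 (-2.97) and tie1 (-2.60) among them. Summed over 18 pancreas markers, it was 4384, 9719, 11150 and 5050 CPM, highest in vehicle replicate 2 and lipofermata replicate 1, which were also the higher library of each group in foxa2 and hnf1ba. The hepatocyte marker ahsg1 showed the same order (753.5, 977.9, 438.1 and 382.3 CPM). The sum over 23 hepatocyte markers did not (83720, 96180, 63330 and 65700 CPM), as lipofermata replicate 2 exceeded lipofermata replicate 1. Of 16 tested pancreas markers, 1 rose, the hormone gene ins with 12 and 0 counts against 64 and 28, and edgeR called 0 lower (1 at an unadjusted p under 0.05, 0 with DESeq2 and 1 with limma voom). Without vehicle replicate 2, 13 pancreas markers rose, and without vehicle replicate 1, 7 fell. Without lipofermata replicate 1, ins did not pass. Summed over 12 biliary markers the level was 5555, 6008, 5663 and 5872 CPM, with overlapping groups, and 6 rose, epcam (1.20) and alcama (0.99) among them, while krt8 (-0.44) and sox9b (-0.45) fell. Neither krt8 nor sox9b passed with total counts or without lipofermata replicate 2, and 3 biliary markers rose without lipofermata replicate 1. Myeloid markers summed to 124, 53.5, 45.2 and 72.4 CPM, and lyz was at 0 counts in all libraries. Intestinal markers summed to 74.0, 80.3, 101 and 95.4 CPM, with 1 of 6 tested higher (cdh17, 0.59, not passing without lipofermata replicate 1) and fabp6 at 0 throughout. Neuronal markers summed to at most 9.47 CPM and markers of muscle and lens to at most 13.3 CPM, with 2 of 5 and 3 of 5 tested lower. The calls in muscle and lens depended on the libraries used. The lens genes cryaa and cryba2a were at 0, and the lens gene crybb1 had 0, 3, 2 and 2 counts. The part of these cell types in the changes of the factors was not tested.

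The genes closest to each called factor in pattern were found by the Euclidean distance of log2 CPM, centred on each gene's mean, over the 4 libraries. Closest to hnf4a were ucp1, an uncoupling protein gene, khk, the fructokinase gene, and nudt19, at distances of 0.07, 0.07 and 0.09. Closest to nr5a2 were itgb1b.2, abhd18 and sh3kbp1 (0.02 to 0.03), and to cebpa rab9a, ndufs3 and edem2 (0.02 each). For hnf1ba they were dhrs13a.3, alpk2 and gapdh (0.04 to 0.05), and for foxa2 mgat4b, klhl32 and ryr1a (0.05 to 0.11). Levels of klhl32 (0.55 to 1.80 CPM) and ryr1a (0.33 to 0.98 CPM) were low, where counting error is large. With 4 libraries in 2 groups, a close match in pattern is a description only, and of these 15 genes rab9a, edem2, klhl32, ryr1a and sh3kbp1 were not called.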

How the data were processed

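Polyadenylated RNA from livers of 6 dpf larvae was sequenced from stranded libraries, 2 with vehicle and 2 with lipofermata. The submitters' processing notes name HISAT2, featureCounts and GRCz11, and the deposited values are the authors' raw counts per gene, not normalized. Tool versions, annotation and strandedness of counting: not given in the sources used here. Libraries held 14997821 to 19368695 counts.

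Genes kept by filterByExpr (minimum count 10) were tested in R 4.3.3 with edgeR 4.0.16 (TMM, quasi-likelihood test, treatment as the only term, Benjamini-Hochberg adjustment over all genes, threshold 0.1). Standard errors are the change divided by the square root of F. The fit was tested on simulated data. Alternatives were DESeq2 1.42.0, its size factors in edgeR, limma voom (3.58.1), total counts, other filters, a replicate block and each library left out. A name carried by several identifiers stands for that with most counts. The order of levels per length was not made, and coordinates were not used. Figures were drawn with matplotlib 3.10.9.

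The members and lists were chosen with earlier results of these data known. Named were all 9 factors, their paralogs, up to 4 list genes per direction with the smallest p, and the 3 genes nearest in pattern to each called factor. Family shares, ratios, fabp10a, hpxa, nr0b2a, creb3l3b, creb3l3l, abcg8, lyz, fabp6, cryaa, cryba2a and crybb1 were chosen after values were seen. Some paralogs and list genes, 1 target list and 1 family share are not reported here.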

Additional observations from a re-analysis of the deposited data

How the results depend on the processing

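Scaling by total counts gave 5092 genes higher and 1182 lower (81.2% of calls higher, against 49.5%), and the factors themselves 4 higher and 1 lower. It gave hnf1ba -0.24, prox1a 0.060, onecut1 0.93, foxa1 0.17, foxa2 -0.53 and foxa3 0.55, and among paralogs cebpb 0.23, cebpg 0.14, hnf4g 0.046 and onecut2 0.26. The lists it moved by over 1.5 times became paralogs 3 higher, other liver factors 3 lower, cofactors 9 higher and 0 lower, HNF4A targets 10 higher, FOXA targets 1 higher and 4 lower, NR5A2 targets 5 higher and 1 lower, C/EBPα targets 1 higher and 3 lower, ONECUT1 targets 3 lower, hepatocyte markers 3 higher, biliary 0 lower, intestinal 3 higher, myeloid 1 lower and neuronal 1 higher. With total counts, 10 HNF4A targets were still lower. With DESeq2, cebpa (0.40) did not pass, and the factors had 1 higher, biliary markers 1 lower and myeloid 3 lower. C/EBPα targets had 1 higher with DESeq2's size factors, limma voom, no filter and the block. Pancreas markers had 1 lower with limma voom, no filter and the block, and 3 higher without a filter, when muscle and lens markers had 5 lower. NR5A2 targets had 5 lower with limma voom.

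The labels do not say that the replicate numbers pair the samples. The correlation of replicate deviations between the groups was 0.033, which cannot settle whether they were paired. The replicate block gave 2756 genes higher and 2724 lower, cofactors 5 higher and NR5A2 targets 5 lower, hnf4a -1.19, and no factor changed its call. With 1 library left out, the lone library of a group is assumed to vary like the other pair.

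Leaving out each library in turn gave 1128 to 3115 genes higher and 1284 to 2898 lower. The range over the 4 omissions was, for the factors, hnf4a -1.45 to -0.92, nr5a2 0.37 to 0.40, hnf1ba -0.82 to -0.44, prox1a -0.67 to 0.069, onecut1 0.52 to 0.58, foxa1 -0.39 to -0.032, foxa2 -1.20 to -0.65, foxa3 -0.008 to 0.39, cebpa 0.35 to 0.44, and for paralogs that changed direction cebpb -0.29 to 0.012, onecut2 -0.39 to 0.11. Genes called higher and lower were biliary markers 3 to 6 and 0 to 3, cofactors 0 to 4 and 0 to 5, hepatocyte markers 0 to 1 and 5 to 17, intestinal 0 to 2 and 0 to 1, muscle and lens 0 to 0 and 0 to 6, myeloid 0 to 1 and 1 to 10, neuronal 0 to 0 and 1 to 2, pancreas 0 to 13 and 0 to 7, other liver factors 1 to 4 and 4 to 8, paralogs 0 to 1 and 3 to 4, HNF4A targets 0 to 3 and 7 to 17, FOXA targets 0 to 0 and 4 to 12, NR5A2 targets 0 to 2 and 1 to 5, C/EBPα targets 0 to 2 and 0 to 8, ONECUT1 targets 0 to 0 and 4 to 8. Endothelial markers had 0 higher and 12 lower in each. Of 63 other named genes that were called, 32 lost the call without lipofermata replicate 1, 24 without replicate 2, 8 without vehicle replicate 1 and 3 without vehicle replicate 2, and none turned direction while called. The causes of these changes were not tested.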
